A study of Homo sapiens with 9 samples.

Results

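The transcripts of 38 genes that encode subunits or activators of the proteasome were examined in A549 cells, a human lung adenocarcinoma line. They were picked by name among the 60676 genes of the deposited fragment table, and all 38 had enough fragments to be tested, as did 15500 genes in all. Of these, 33 are constitutive subunits and 5 (PSMB8, PSMB9, PSMB10, PSME1 and PSME2) are induced by interferon. The study compared 3 groups of 3 libraries. One carried a non-targeting short hairpin RNA (shNT) and the others the hairpin shLITATS1-1 or shLITATS1-2, both directed against the long noncoding RNA LITATS1. The cells of all 3 groups had been transduced with lentivirus and kept in culture for 2 days, followed by 3 days under puromycin, so the control cells carried a vector and had passed selection too. No interferon treatment is named in the labels. The 3 libraries of a group are given as biological replicates of one cell line. The sources do not say whether they came from separate transductions, so a p-value here reflects how far the libraries of a group scatter.

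The proteasome degrades proteins marked with ubiquitin. Its core particle is a barrel made of outer alpha rings, which gate the entry, and inner beta rings, which carry the proteolytic sites, while the regulatory particle binds ubiquitin chains, removes them and threads the substrate inward with a ring of ATPases. Interferon induces 3 alternative catalytic beta subunits that take the places of PSMB5, PSMB6 and PSMB7 in newly assembled cores, the immunoproteasome, and also induces the activator PA28 alpha/beta (PSME1 and PSME2), which opens the alpha ring. Immunoproteasomes are known for producing peptides that suit MHC class I, and in epithelial cells they are usually scarce until interferon acts.

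Levels are given as CPM, that is fragments of a gene relative to all fragments assigned to genes, scaled between libraries by the trimmed mean of M values (TMM). Differences are log2 fold changes with the standard error in parentheses, from edgeR's quasi-likelihood test of all 9 libraries together, and a gene is called higher or lower where the p-value adjusted over all 15500 genes is under 0.05. Total fragments per library ran from 24556848 to 24671296, and fragments in genes from 19610514 to 19989652. The target LITATS1 had 15.1 ± 1.51 CPM (SD, n = 3) in the control libraries, against 3.34 ± 0.405 for shLITATS1-1 and 3.02 ± 0.321 for shLITATS1-2. Mitochondrially encoded genes made up 12.2% of gene fragments in shNT, 10.2% in shLITATS1-1 and 7.97% in shLITATS1-2. The 5 epithelial markers were all present, with a summed level of 4200 to 4410 CPM with shNT, 7500 to 7610 with shLITATS1-1 and 3760 to 4010 with shLITATS1-2.

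Promoter sequences are shown for the 5 interferon-induced members and for TAP1, the peptide transporter gene that lies head to head with PSMB9, because the members of this group did not move as 1 block. They run from 150 bases before to 30 bases after a start site listed by RefSeq (GRCh38.p14) and read 5′ to 3′ on the gene's strand. Capitals mark matches to the interferon regulatory factor element (GAAA, any 2 bases, GAAA) on either strand.
PSMB8 (chr6:32844018-32844197, minus strand): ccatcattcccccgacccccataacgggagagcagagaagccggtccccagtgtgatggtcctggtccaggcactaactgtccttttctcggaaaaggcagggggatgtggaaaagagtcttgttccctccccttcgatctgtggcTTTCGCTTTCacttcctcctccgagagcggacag
PSMB9 (chr6:32854042-32854221, plus strand): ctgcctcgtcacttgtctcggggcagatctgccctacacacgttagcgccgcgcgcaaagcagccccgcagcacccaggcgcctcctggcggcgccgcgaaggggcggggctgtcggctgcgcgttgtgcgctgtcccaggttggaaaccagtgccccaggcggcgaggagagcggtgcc
TAP1 (chr6:32853675-32853854, minus strand): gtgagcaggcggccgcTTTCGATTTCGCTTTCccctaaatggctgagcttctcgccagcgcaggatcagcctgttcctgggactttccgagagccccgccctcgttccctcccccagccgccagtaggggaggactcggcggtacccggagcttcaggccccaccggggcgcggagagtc
PSMB10 (chr16:67936821-67937000, minus strand): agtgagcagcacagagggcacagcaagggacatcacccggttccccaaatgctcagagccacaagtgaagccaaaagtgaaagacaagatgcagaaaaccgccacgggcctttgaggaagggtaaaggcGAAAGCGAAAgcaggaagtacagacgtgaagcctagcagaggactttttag
PSME1 (chr14:24136044-24136223, plus strand): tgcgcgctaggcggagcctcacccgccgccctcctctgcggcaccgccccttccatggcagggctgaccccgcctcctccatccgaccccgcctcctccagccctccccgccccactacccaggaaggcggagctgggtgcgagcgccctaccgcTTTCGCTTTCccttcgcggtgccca
PSME2 (chr14:24146581-24146760, minus strand): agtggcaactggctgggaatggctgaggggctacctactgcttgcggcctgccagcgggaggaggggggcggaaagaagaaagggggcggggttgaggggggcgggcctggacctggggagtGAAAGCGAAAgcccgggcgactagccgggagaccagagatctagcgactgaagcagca
PSMB8, PSMB10, PSME1 and PSME2 each held 1 match and PSMB9 held none. TAP1 held 2 matches that overlap each other, on the side of its start that faces PSMB9, whose start lies 488 bases away. For PSMB8 and TAP1 the table lists 2 starts, and the one with more matches is shown.

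The table of promoters, whose windows run from 250 bases before to 50 after the start, held 33 of the 38 members. Searched on both strands, the interferon regulatory factor element was found in 4 of 5 interferon-induced members and in 2 of 28 constitutive ones, PSMA4 and PSMB4, against 4.38% of all 27305 genes in the table. A STAT element, TTCNNNGAA, was found in 1 of 5 (PSMB8) and 6 of 28, against 9.38% of genes. The antioxidant response element core TGACNNNGC, the kind of site through which NFE2L1 drives proteasome genes, was found in 3 of 5 (PSMB9, PSME1 and PSME2) and 8 of 28, against 16.1% of genes. Per window, of which there are 35116, the shares are 3.57%, 7.66% and 13.3% in that order. In the 5 interferon-induced members no match to one element overlapped a match to another. A match to these letters is a description of the window and not evidence of binding.

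Most members were lower with shLITATS1-1 than with shNT. Of the 33 constitutive subunits, 27 were lower, 2 were higher (PSMD2 and PSMA2) and 4 did not pass the test, while 30.5% of all genes tested were lower and 30.5% higher. Their median log2 fold change was -0.22, against -0.007 for all genes tested, and their summed level was 88.3% of that with shNT. With shLITATS1-2, 20 of the 33 were lower, 3 were higher (PSMC4, PSMB7 and PSME4) and 10 did not pass, while 28.9% of all genes were lower and 27.8% higher. The median was then -0.097, against -0.0040 for all genes, and the summed level was 94.5% of that with shNT. Both comparisons use the same shNT libraries. In bulk RNA, fewer cells of a type and less RNA per cell cannot be told apart.

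**Figure D1:**
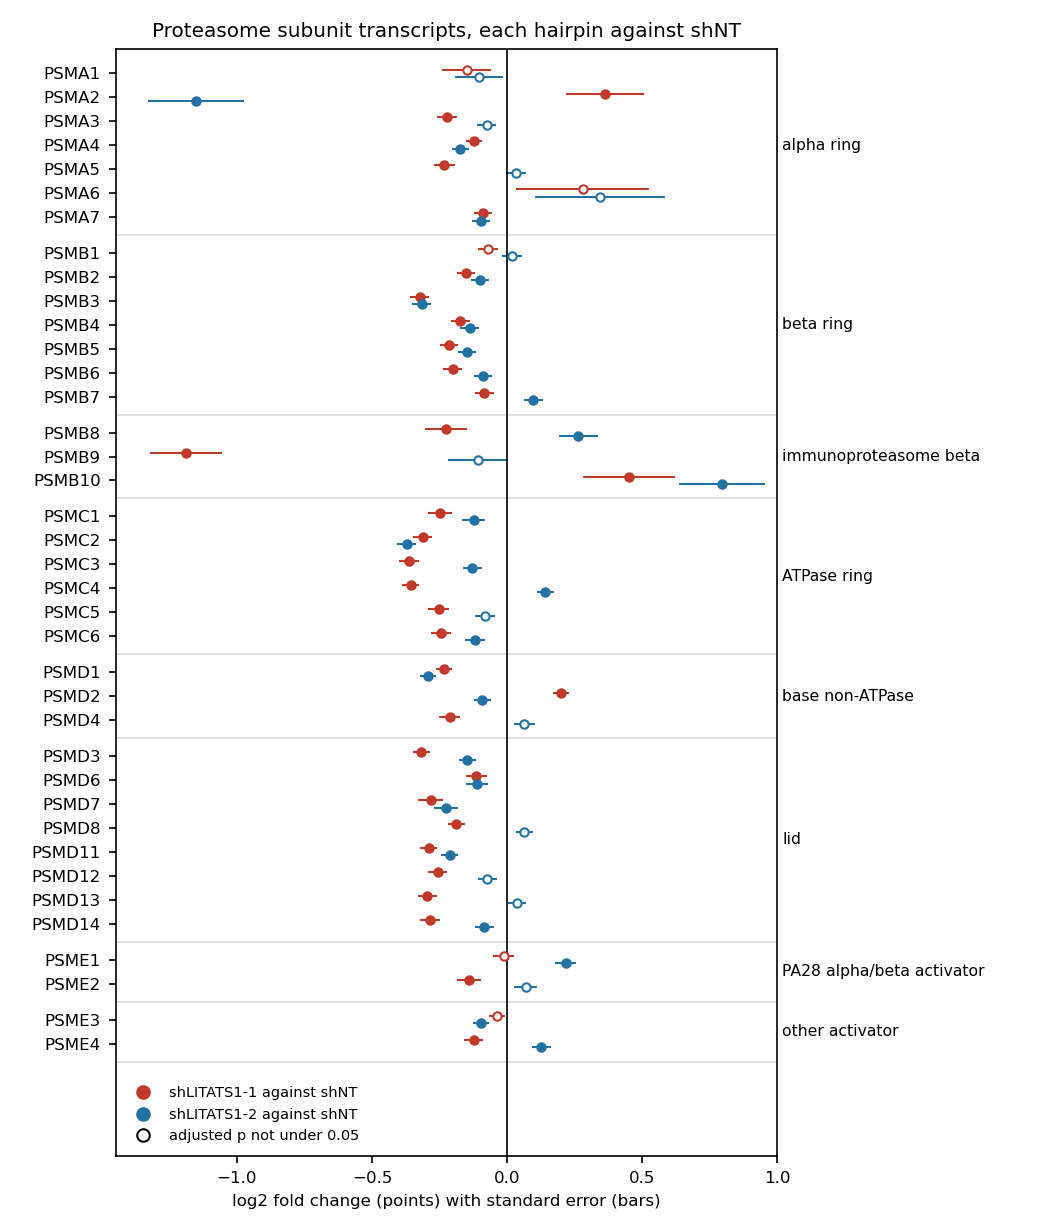
Log2 fold change of each of the 38 members with shLITATS1-1 (red) and shLITATS1-2 (blue) against shNT, grouped by role. Bars are standard errors from the fit, filled points passed an adjusted p of 0.05 and open points did not. Of the 33 constitutive subunits, 27 were lower with shLITATS1-1 and 20 with shLITATS1-2, of which 7 (PSMA7, PSMB2, PSMB6, PSMD2, PSMD6, PSMD14 and PSME3) turn positive when only library size is used for scaling.

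The 2 decreases differed in how far they held. In shLITATS1-1, 24 of the 27 lower calls held in all of 19 alternative analyses, 9 of which left out 1 library each. The exceptions were PSMA7, PSMB7 and PSMD6. PSMD6 lost its call without shNT replicate 1 (adjusted p = 0.0548) and without shLITATS1-1 replicate 2 (0.065), and PSMA7 and PSMB7 lost theirs without shNT replicate 2 (0.0616 and 0.074) or 3 (0.0781 and 0.196), without shLITATS1-1 replicate 3 (0.137 and 0.187) and without 1 other shLITATS1-1 library each. In shLITATS1-2, 6 of the 20 lower calls held throughout, those of PSMA2, PSMB3, PSMC2, PSMD1, PSMD7 and PSMD11, and all of the other 14 were lost when levels were scaled by library size. That scaling raised the median of all genes to 0.109 and gave 8 constitutive subunits higher and 6 lower, with 39.1% of all genes higher and 19.1% lower. Relative to the median of all genes, the constitutive median lay 0.093 lower under both scalings. For shLITATS1-1 it lay 0.21 lower under both. Between these scalings all genes of a library move by the same factor. These distances were therefore nearly fixed in advance, and they do not show whether the decreases hold.

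**Figure D2:**
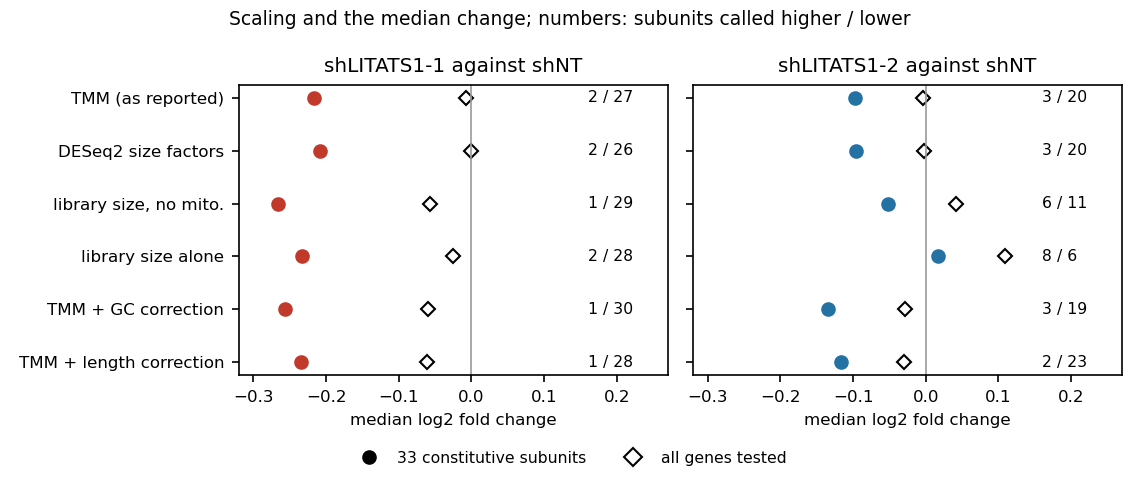
Median log2 fold change (horizontal axis) of the 33 constitutive subunits (filled circles) and of all genes tested (open diamonds) against shNT, under 6 ways of scaling or correcting the counts (rows). The numbers give how many of the subunits were called higher and lower, from 2 and 27 for shLITATS1-1 as reported to 8 and 6 for shLITATS1-2 with library size alone, where all genes shift to 0.109.

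The libraries of each group lay close together. Across the 30 constitutive members that share little sequence with a read-through gene (described with the alpha ring), the median log2 level relative to the shNT mean was -0.025, 0.011 and 0.018 in the shNT libraries, -0.22, -0.22 and -0.23 with shLITATS1-1 and -0.078, -0.099 and -0.11 with shLITATS1-2. In every shLITATS1-1 library 29 of the 30 lay below the shNT mean, the exception being PSMD2. In the shLITATS1-2 libraries 22, 22 and 25 did. The group medians did not overlap.

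**Figure D3:**
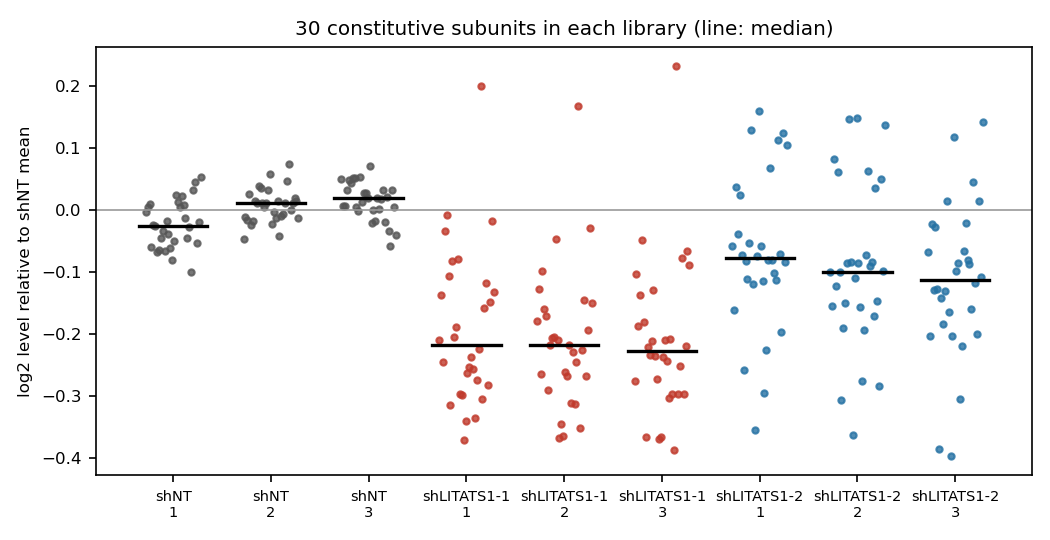
Log2 level of 30 constitutive subunits (points) relative to the mean of the shNT libraries, by library, with the median as a line. The shLITATS1-1 medians lie between -0.22 and -0.23 and those of shLITATS1-2 between -0.078 and -0.11.

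Of the 17 members of the regulatory particle, 16 (94.1%) were lower with shLITATS1-1, against 30.5% of all genes tested. In the core particle, PSMA1, PSMA2, PSMA6 and PSMB1 were not lower with that hairpin. All of these but PSMB1 had low counts (described with the alpha ring), so the shares of the 2 particles are not ranked. All 6 ATPases of the base, which unfold substrates, were lower, by 0.24 to 0.36 on the log2 scale, and their summed level was 80.4% of that with shNT. PSMC1 shares 47.7% and PSMC5 10.5% of its coding bases with genes on the opposite strand, a limit described with PSMB8. PSMC3 fell from 142, 151 and 151 CPM with shNT to 114, 116 and 114 with shLITATS1-1 (-0.36 (0.037), adjusted p = 6.09e-14). With shLITATS1-2 it stood at 140.3, 137 and 128 CPM, all below the shNT libraries (-0.13 (0.036), adjusted p = 0.0015), and this decrease was among those lost with library size scaling (-0.015). PSMC2 was at 146, 151 and 152 CPM with shNT, 122, 116 and 124 with shLITATS1-1 and 117, 116 and 114 with shLITATS1-2. It was lower with both hairpins (-0.31 (0.035) and -0.37 (0.035), adjusted p = 4.40e-12 and 6.67e-15), and neither group overlapped shNT. The direct difference between the hairpins for PSMC2, -0.058 (0.036), did not pass and turned positive after a correction for GC content (0.099, adjusted p = 0.00836).

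PSMC4, another ATPase, went in opposite directions with the hairpins. Its level was 307, 338 and 329 CPM with shNT, 256, 252 and 252 with shLITATS1-1 and 362, 359 and 352 with shLITATS1-2, so that the 3 groups did not overlap. The log2 fold changes were -0.36 (0.032) and 0.14 (0.031), with adjusted p = 3.39e-16 and 6.44e-05. The direct difference between the hairpins was 0.50 (0.031), the largest increase among the constitutive members (adjusted p = 3.82e-23), and its direction held in all alternatives run.

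The 3 other members of the base did not move together. Their summed level was 99.1% of that with shNT for shLITATS1-1 and 91.3% for shLITATS1-2. PSMD1, a large scaffold subunit, stood at 264, 259 and 262 CPM with shNT, 222, 225 and 221 with shLITATS1-1 and 213, 216 and 212 with shLITATS1-2. Both decreases, -0.23 (0.031) and -0.29 (0.031), passed (adjusted p = 6.05e-10 and 3.11e-13) and no library overlapped shNT. PSMD2, its partner scaffold, was at 320.1, 333 and 338 CPM with shNT and at 379, 371 and 388 with shLITATS1-1, all 3 above the shNT libraries. This was the only increase in the regulatory particle with that hairpin (0.20 (0.030), adjusted p = 2.27e-08). With shLITATS1-2 PSMD2 stood at 308, 312 and 311 CPM, below every shNT library (-0.091 (0.030), adjusted p = 0.00767), but library size scaling gave 0.022, which did not pass. PSMD4, a ubiquitin receptor, was lower with shLITATS1-1 (-0.21 (0.039)) and did not pass with shLITATS1-2 (0.065 (0.038)). It passed there as higher without shNT replicate 2 (0.10, adjusted p = 0.0315) and with library size as a whole (0.18, 3.93e-05) or without mitochondrial genes (0.11, 0.0097).

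All 8 lid members were lower with shLITATS1-1, by 0.11 to 0.32, while 30.5% of all genes tested were lower. Their summed level was 83.9% of that with shNT. The largest decrease was that of PSMD3 (-0.32 (0.032), adjusted p = 4.10e-14), a structural subunit that went from 260.4 ± 7.35 CPM (SD, n = 3) to 209 ± 4.28. PSMD14, the deubiquitinase that removes ubiquitin chains before degradation, went from 148 ± 1.66 to 121 ± 7.32 CPM (-0.28 (0.036)). With shLITATS1-2, 5 of 8 (62.5%) passed as lower, against 28.9% of all genes, and the summed level was 95.4%. PSMD11 (-0.21 (0.032)) and PSMD7 (-0.23 (0.046)), the partner of PSMD14, stayed lower in each alternative. PSMD7 shares 28.4% and PSMD11 6.5% of its coding bases with genes on the opposite strand, a limit described with PSMB8. PSMD14 itself had -0.084 (0.036) with shLITATS1-2, a call lost without shNT replicate 1 (adjusted p = 0.0506) or 3 (0.0997) or without shLITATS1-2 replicate 1 (0.0547), 2 (0.0881) or 3 (0.0569), and turned to 0.029 by library size scaling. PSMD8 was at 350.0, 368 and 372 CPM with shNT, 328, 318 and 312 with shLITATS1-1, below all of them, and 396, 376 and 367 with shLITATS1-2, overlapping them. The change passed with shLITATS1-1 (-0.19 (0.031)) and not with shLITATS1-2 (0.064 (0.031)). The latter passed as higher without shNT replicate 3 (adjusted p = 0.0489) or shLITATS1-2 replicate 3 (0.0266), at a minimum count of 50 (0.0184), and with library size as a whole (0.18, 9.75e-07) or without mitochondrial genes (0.11, 0.0017).

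In the core particle, 10 of 14 constitutive members were lower with shLITATS1-1 and 8 of 14 with shLITATS1-2, and 3 and 5 did not pass. The beta ring gave 6 of 7 and 5 of 7 lower. Of all genes tested, 30.5% were lower with shLITATS1-1 and 28.9% with shLITATS1-2. PSMB3, a beta subunit without a proteolytic site, fell with both hairpins, from 159, 168 and 172 CPM with shNT to 134, 136 and 129 with shLITATS1-1 and 139, 135 and 127 with shLITATS1-2, with no overlap with shNT. The log2 fold changes were -0.32 (0.036) for each (adjusted p = 2.55e-12 and 5.13e-12), and the direct difference between the hairpins was 0.0076 (0.036), but passed as 0.14 (adjusted p = 0.000661) with library size as a whole, where the median of all genes was 0.146, and as 0.10 (0.0111) with library size without mitochondrial genes. PSMB1, also non-catalytic, was at 115, 115 and 121 CPM with shNT, 116, 105 and 113 with shLITATS1-1 and 119, 122 and 115 with shLITATS1-2. Its groups overlapped and neither change passed (-0.070 (0.038) and 0.020 (0.038)). The first was called lower without shLITATS1-1 replicate 1 (-0.10, adjusted p = 0.0384), after GC correction (-0.18, 1.03e-05), and with library size as a whole (0.0392) or without mitochondrial genes (0.00459), and the second higher with library size alone (0.13, 0.00168).

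The catalytic beta subunits differed among themselves. PSMB5, with chymotrypsin-like activity, was at 183, 194 and 189 CPM with shNT, 164, 163 and 160.4 with shLITATS1-1 and 175, 170.0 and 166 with shLITATS1-2. Both hairpin groups lay below every shNT library (-0.22 (0.033) and -0.15 (0.033), adjusted p = 4.94e-08 and 7.82e-05), the second not passing with library size scaling (-0.035). PSMB6, with caspase-like activity, was at 146, 153 and 149 CPM with shNT, 131, 129.6 and 129 with shLITATS1-1 and 144, 141 and 136 with shLITATS1-2. The log2 fold changes were -0.20 (0.035) and -0.090 (0.034), the second with adjusted p = 0.0207, lost without shNT replicate 2 (0.0929) or shLITATS1-2 replicate 3 (0.121) and turned to 0.023 by library size scaling. PSMB7, with trypsin-like activity, was at 168, 177 and 182 CPM with shNT, 167, 170.2 and 161 with shLITATS1-1 and 192, 195 and 178 with shLITATS1-2, and both hairpin groups overlapped shNT. Its changes of -0.084 (0.035) and 0.098 (0.035) passed narrowly (adjusted p = 0.0345 and 0.0136). The second was lost without shNT replicate 1 (0.076) and without shLITATS1-2 replicate 1 (0.0654) or 2 (0.131).

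In the alpha ring 4 of 7 (57.1%) were lower with shLITATS1-1 and 3 of 7 (42.9%) with shLITATS1-2, against 30.5% and 28.9% of all genes tested. The 4 with shLITATS1-1 were PSMA3, PSMA4, PSMA5 and PSMA7. The others, PSMA1, PSMA2 and PSMA6, had low counts (described below). The largest decrease with shLITATS1-1 was that of PSMA5 (-0.23 (0.039)), which went from 96.2 ± 0.909 CPM to 81.9 ± 2.29 and did not pass with shLITATS1-2 (0.033 (0.038)). PSMA5 passed as higher with shLITATS1-2 with library size as a whole (0.15, adjusted p = 0.000646) and after GC correction (0.091, 0.0221). PSMA3 was lower with shLITATS1-1 (-0.22 (0.037)) and did not pass with shLITATS1-2 (-0.075 (0.036)), where it was called lower without shNT replicate 2 (-0.10, adjusted p = 0.0256) and after length correction (0.0101). PSMA4 passed as lower with both (-0.12 (0.030) and -0.17 (0.030)), the second not with library size scaling (-0.060).

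PSMA1, PSMA2 and PSMA6 of this ring, and PSMB10 of the immunoproteasome, had low counts. They also share 88.6%, 97.1%, 70.4% and 58.3% of their coding bases with a second gene on the same strand. In GENCODE 29 these are the read-through gene models ENSG00000256206, ENSG00000256646, ENSG00000258790 and ENSG00000261884, in that order. ENSG00000261884, which overlaps PSMB10, held 7 to 23 fragments in a library, and the other models held 0 to 4. Ambiguous fragments were 10.8% of the total in shNT, 10.2% in shLITATS1-1 and 10.3% in shLITATS1-2. The part of this sharing in the low counts was not tested. The levels of these 4 members are not compared with those of other subunits, and their changes rest on the fragments that could be assigned to them. Without the 3 constitutive ones, the counts were 1 higher, 27 lower and 2 not passing with shLITATS1-1 and 3, 19 and 8 with shLITATS1-2. The shares of all genes to set beside these counts are those given above.

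PSMA2 had the largest change of any constitutive member, on few fragments. Its level was 3.13, 3.84 and 4.62 CPM with shNT, 5.26, 5.48 and 4.16 with shLITATS1-1 and 1.45, 1.88 and 1.87 with shLITATS1-2, from 30 to 104 fragments in a library. The shLITATS1-2 libraries lay below all others, with a log2 fold change of -1.15 (0.178) (adjusted p = 5.78e-08). The increase with shLITATS1-1, 0.36 (0.145), had adjusted p = 0.0257 and overlapped shNT. It was lost without shNT replicate 1 (adjusted p = 0.192) or 2 (0.0558) and without shLITATS1-1 replicate 1 (0.0881) or 2 (0.129). PSMA6 stood at 1.33, 1.23 and 1.08 CPM with shNT, 1.68, 0.948 and 1.79 with shLITATS1-1 and 1.59, 1.73 and 1.30 with shLITATS1-2. Both hairpin groups overlapped shNT, and its changes of 0.28 (0.247) and 0.34 (0.24) did not pass.

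The interferon-induced members were divided. With shLITATS1-1, 3 of 5 were lower (PSMB9, PSMB8 and PSME2), 1 was higher (PSMB10) and PSME1 did not pass. With shLITATS1-2, 3 of 5 were higher (PSMB10, PSMB8 and PSME1), none was lower and the other 2 did not pass. With DESeq2, and at an unadjusted p under 0.05 in edgeR's test, the lower count was 0 as well. These counts stand beside the same shares of all genes as above. Among these calls against shNT, the decrease of PSMB9 with shLITATS1-1 and the 3 increases with shLITATS1-2 held in all 19 alternatives, and the other 3 calls did not.

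PSMB9 (chr6:32844136-32859585 in GRCh38) showed the largest decrease of all 38 members with shLITATS1-1. Its level was 6.76, 6.76 and 7.66 CPM with shNT, 3.47, 3.06 and 2.74 with shLITATS1-1 and 7.05, 6.55 and 6.06 with shLITATS1-2. The shLITATS1-1 libraries all lay below the others, while those of shLITATS1-2 overlapped shNT. The log2 fold change was -1.19 (0.133) with shLITATS1-1 (adjusted p = 2.93e-12), a level of 0.438 times that with shNT, and -0.11 (0.112) with shLITATS1-2, which did not pass. Its neighbour TAP1 was lower with shLITATS1-1 as well, by less (-0.24 (0.053)), and had 0.021 (0.051) with shLITATS1-2.

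PSMB8 (chr6:32840717-32844703), which replaces PSMB5, was at 14.8, 16.4 and 15.5 CPM with shNT, 12.6, 13.4 and 14.01 with shLITATS1-1 and 19.0, 19.2 and 17.9 with shLITATS1-2. The 3 groups did not overlap. The increase with shLITATS1-2 was 0.26 (0.072) (adjusted p = 0.00131). The decrease with shLITATS1-1, -0.23 (0.078), had adjusted p = 0.00986, and missed the threshold without shNT replicate 2 (-0.19, 0.0588), without shLITATS1-1 replicate 1 (-0.19, 0.0644) and with DESeq2 (0.0613). Some of the coding bases of PSMB8 are shared with genes on the opposite strand, and the strand setting of the counting is not given in the sources used here.

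PSMB10 (chr16:67934502-67937087), which replaces PSMB7, was the 1 interferon-induced member that passed as higher with both hairpins. Its level was 2.56, 1.95 and 3.34 CPM with shNT, 3.73, 3.58 and 3.42 with shLITATS1-1 and 5.36, 3.80 and 4.47 with shLITATS1-2, from 38 to 111 fragments in a library. All hairpin libraries lay above all shNT libraries. The log2 fold changes were 0.45 (0.17) and 0.80 (0.159), with adjusted p = 0.0179 and 1.55e-05. The first was lost without shNT replicate 2 (0.28, adjusted p = 0.189), without shLITATS1-1 replicate 1 (0.0538) and with DESeq2 (0.0966).

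**Figure D4:**
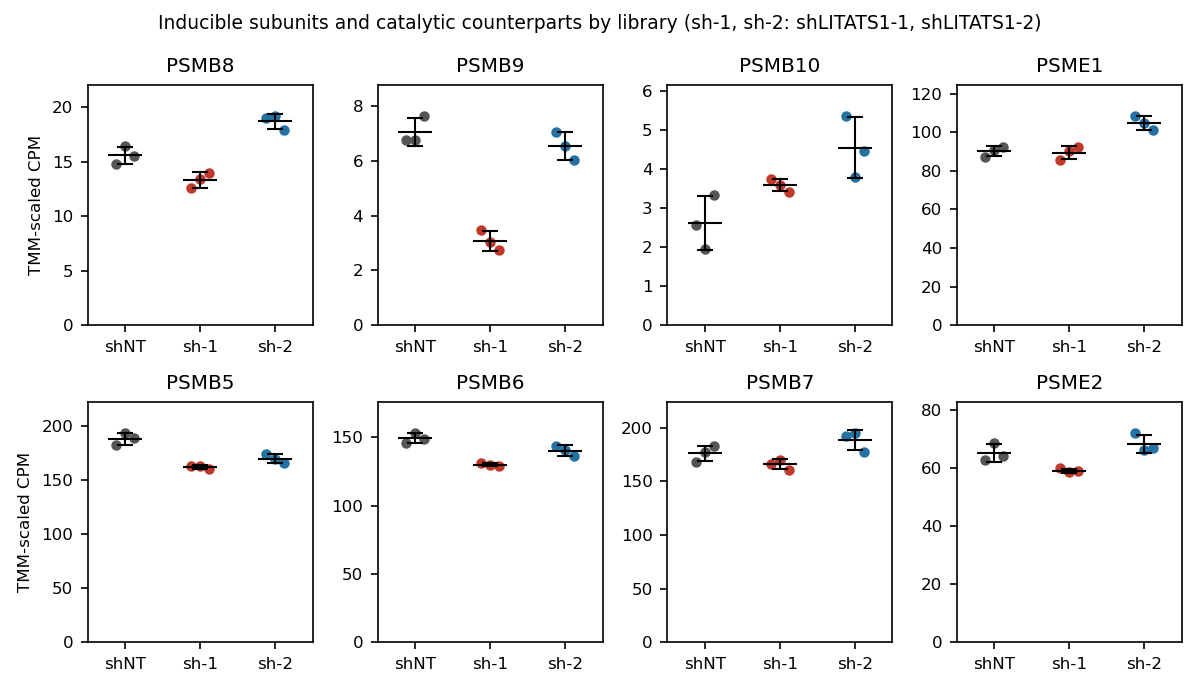
Levels (TMM-scaled CPM) of the 5 interferon-induced members and of PSMB5, PSMB6 and PSMB7 in each library (points), with mean and SD (bars, n = 3). PSMB9 drops to 2.74 to 3.47 with shLITATS1-1, and PSMB8 and PSME1 are highest with shLITATS1-2.

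The 2 subunits of PA28 alpha/beta differed less. PSME1 was at 87.3, 90.9 and 92.1 CPM with shNT, 85.6, 90.2 and 92.1 with shLITATS1-1 and 109, 105 and 101 with shLITATS1-2. The shLITATS1-1 libraries overlapped shNT (-0.012 (0.040)) and the shLITATS1-2 libraries lay above both (0.22 (0.039), adjusted p = 1.59e-06). PSME2 was at 62.7, 68.4 and 63.9 CPM with shNT, 59.7, 58.4 and 58.7 with shLITATS1-1 and 71.9, 66.0 and 66.6 with shLITATS1-2. It was lower with shLITATS1-1 (-0.14 (0.045), adjusted p = 0.00544), a call lost without shNT replicate 2 (-0.10, 0.0666), and did not pass with shLITATS1-2 (0.069 (0.044)), where library size scaling gave 0.18 with adjusted p = 0.000234. Without shNT replicate 2, then, only PSMB9 of the 5 was called with shLITATS1-1.

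PSMB8 and PSMB9 were set against their constitutive counterparts, and PSMB10, whose level is not comparable, was left out. Per kilobase of the principal transcript, PSMB8 made up 8.68 ± 0.191% (SD, n = 3) of the summed level of PSMB8 and PSMB5 with shNT, 8.63 ± 0.507% with shLITATS1-1 and 11.2 ± 0.254% with shLITATS1-2. PSMB9 made up 4.90 ± 0.363% of PSMB9 and PSMB6 in the shNT libraries, 2.52 ± 0.271% in those of shLITATS1-1 and 4.84 ± 0.228% in those of shLITATS1-2. The share of PSMB8 was thus the same within the spread with shNT and shLITATS1-1, where both partners were lower, and larger in each shLITATS1-2 library than in any other. With 3 libraries against 3, an exact permutation test of such a share cannot go below p = 0.1, so none is given. Per kilobase of all exons, the shares of the pair PSMB8 and PSMB5 were 4.64%, 4.61% and 6.08% in shNT, shLITATS1-1 and shLITATS1-2, again highest in the last.

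**Figure D5:**
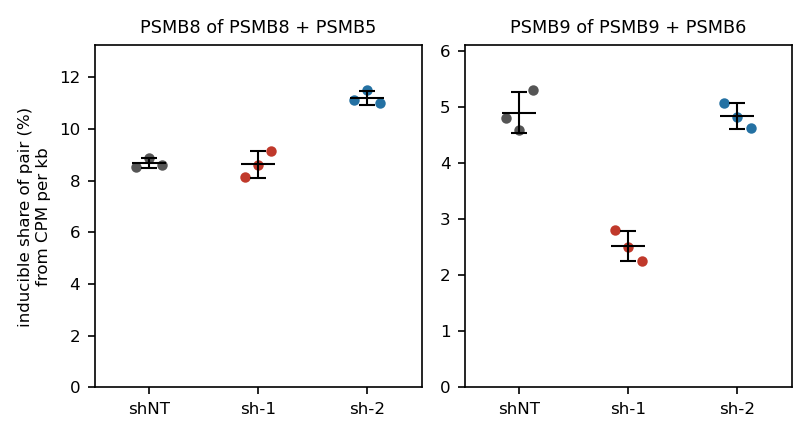
Share (%) of PSMB8 and of PSMB9 in the summed level of itself and its constitutive counterpart, per kilobase of the principal transcript, by library (points) with mean and SD (bars, n = 3). PSMB8 rises to 11.2% with shLITATS1-2 and PSMB9 drops to 2.52% with shLITATS1-1.

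The other 2 activators are not counted among the interferon-induced members. PSME3, the subunit of a nuclear activator of the same family, had the highest level per kilobase of principal transcript of any constitutive member (366 CPM per kb with shNT). Per kilobase of all exons it stood at 70.9, and PSMB3 was highest at 141. It stood at 360.2, 369 and 366 CPM with shNT, 361, 358 and 349 with shLITATS1-1 and 345, 341 and 339 with shLITATS1-2, and the change passed with shLITATS1-2 only (-0.097 (0.029), adjusted p = 0.00363), where library size scaling gave 0.017. PSME4, a large activator linked to histone turnover, was at 138, 132 and 129.5 CPM with shNT, 122, 120.1 and 125 with shLITATS1-1 and 143, 147 and 147 with shLITATS1-2. The groups did not overlap, and the changes were -0.12 (0.036) and 0.13 (0.035), with adjusted p = 0.0019 and 0.00121.

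Compared directly, shLITATS1-2 libraries had more proteasome transcripts than shLITATS1-1 libraries. Of the 33 constitutive members, 18 were higher, 2 were lower (PSMA2 and PSMD2) and 13 did not pass, against 30.7% of all genes higher and 30.2% lower. The median difference was 0.090, against 0.015 for all genes. Of the 18, 15 held in all 19 alternatives, and PSMB1, PSMC1 and PSMD11 did not. All 5 interferon-induced members were higher, by 1.08 (0.134) for PSMB9, 0.49 (0.075) for PSMB8, 0.34 (0.15) for PSMB10, 0.23 (0.039) for PSME1 and 0.21 (0.044) for PSME2. The difference of PSMB10 had adjusted p = 0.0417 and was lost in 9 alternatives, 5 of which left out 1 library: any of the shLITATS1-1 replicates 1 (0.0567), 2 (0.0803) and 3 (0.112), or shLITATS1-2 replicate 1 (0.284) or 3 (0.0543). Scaling by library size moved the median of all genes to 0.146, with 44.6% higher and 21.2% lower, and then gave 28 constitutive members higher.

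The genes around the proteasome were counted in lists that hold no member. The shares of all genes tested to read these counts against are 30.5% higher and 30.5% lower with shLITATS1-1, and 27.8% higher and 28.9% lower with shLITATS1-2. Of 10 assembly factors, 5 were lower with each hairpin and 1 (10.0%) was higher with shLITATS1-2. POMP, an assembly chaperone of the core, had -0.17 (0.040) and -0.40 (0.040), PSMG1, part of an alpha ring chaperone, -0.15 (0.049) and -0.38 (0.049), and PSMD9, a base chaperone, -0.064 (0.137), which did not pass, and -0.49 (0.143). Of 14 further subunits and associated proteins, 9 (64.3%) were lower with each hairpin, and 3 (21.4%) and 2 (14.3%) were higher. UCHL5, a deubiquitinase of the regulatory particle, was lower with both (-0.43 (0.043) and -0.30 (0.042)), as was RAD23B, a shuttle receptor (-0.23 (0.030) and -0.49 (0.030)). UBE3C, a ligase that extends chains at the proteasome, was higher with both (0.35 (0.035) and 0.36 (0.035)).

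NFE2L1 is the transcription factor that raises proteasome genes when proteasome capacity is short, and DDI2 is the protease that activates it. Of the 8 genes of that route, 1 was higher and 5 (62.5%) lower with shLITATS1-1, against 30.5% of all genes each way, and 4 of 8 were higher and 1 lower with shLITATS1-2, against 27.8% and 28.9%. Compared directly, 7 of 8 (87.5%) were higher with shLITATS1-2 than with shLITATS1-1, against 30.7% of all genes, and NGLY1 was lower. NFE2L1 had 0.035 (0.031), which did not pass, and 0.30 (0.031), DDI2 -0.26 (0.062) and 0.27 (0.058), and MAFG, a small partner of NFE2L1, -0.51 (0.041) and 0.0024 (0.039), which did not pass. Of 6 ubiquitin and ubiquitin-activating genes, 2 were higher and 1 lower with shLITATS1-1, and with shLITATS1-2 2 were lower and 4 did not pass. The 33.3% higher with shLITATS1-1 and the 33.3% lower with shLITATS1-2 are near the shares of all genes. UBB, a polyubiquitin gene, had -0.31 (0.059) and 0.023 (0.058), and UBA6, an activating enzyme, 0.070 (0.044) and -0.54 (0.046), the first for UBA6 and the second for UBB not passing.

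Of 14 genes that lead from interferon to immunoproteasome genes, 13 were tested. With shLITATS1-1, 7 (53.8%) were higher and 4 (30.8%) lower, against 30.5% of all genes each way. With shLITATS1-2, 3 (23.1%) were higher and 5 (38.5%) lower, against 27.8% and 28.9%. The changes in this list ran from -0.913 to 1.03 with shLITATS1-1 and from -1.17 to 0.49 with shLITATS1-2. IRF1, an activator of PSMB9 and TAP1, was higher with both (0.35 (0.074) and 0.44 (0.072)), as was NLRC5, an activator of MHC class I genes (0.44 (0.077) and 0.40 (0.076)). IFNGR1 of the same list was higher with shLITATS1-1 (1.03 (0.044)) and lower with shLITATS1-2 (-0.68 (0.052)). Of 12 MHC class I and peptide loading genes, 8 (66.7%) were higher and 3 (25.0%) lower with shLITATS1-1, and 7 (58.3%) were higher and 1 (8.33%) lower with shLITATS1-2, beside the same shares of all genes. HLA-B had 1.34 (0.083) and 1.03 (0.085), while TAP2 had 0.016 (0.079) and 0.044 (0.078) and did not pass. Whether the changes of IRF1 and NLRC5 bear on those of PSMB9, TAP1 or HLA-B was not tested.

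Markers of immune cells, which hold much immunoproteasome, were low. Of 8 markers, CD3E was at 0 in all libraries, 3 exceeded 1 CPM in a group, and the summed level was 2.00 to 2.77 CPM with shNT, 2.42 to 3.95 with shLITATS1-1 and 4.09 to 4.67 with shLITATS1-2. The highest sums thus stood in the group with the highest PSMB8 and PSMB10, and their part in the result was not tested. PTPRC had at most 1 fragment in a library. The summed levels of 5 fibroblast markers were 2.56 to 3.29, 4.85 to 5.37 and 1.64 to 1.73 CPM in the same order, 4 endothelial markers stayed at or below 0.87 CPM, and 4 markers of alveolar type II cells, the cell type A549 is often used to model, stayed at or below 1.53 CPM. Of the tissue-restricted subunits, PSMA8 of the testis was at 0 throughout and PSMB11 of the thymus at no more than 0.0514 CPM.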

How the data were processed

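RNA of 9 A549 libraries (3 groups of 3) was sequenced by the submitters on a DNBSEQ platform. Reads were handled with FastQC, cutadapt 2.10, STAR 2.7.5a and HTSeq 0.12.4 on GRCh38, per the submitters' processing notes. The authors deposited 1 table of raw fragment counts for 60676 genes. Lines that name no gene (19.0% to 20.3% of fragments) were left out. Which gene annotation and strand setting served for counting is not stated in the labels, and positions, exon lengths and overlaps come from GENCODE 29.

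Genes with enough counts (edgeR's filterByExpr, minimum count 10; 15500 genes) entered 1 quasi-likelihood fit of all 9 libraries (edgeR 4.0.16, R 4.3.3, TMM scaling, no covariate), with 3 two-sided contrasts and Benjamini-Hochberg adjustment over all genes tested. The common biological coefficient of variation was 2.71%. Replicates of a group differed by 1.47 to 2.72 times the chi-square expected from counting alone. All 9 were entered as separate replicates, as they are labelled. This scatter does not show whether they came from separate transductions. Same-numbered libraries of different groups did not deviate together (correlations from -0.188 to 0.0795), so numbers were not used as pairs. Alternatives included DESeq2 1.42.0, other scalings and filters, corrections for GC content and exon length, and leaving out each library.

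The members and lists were chosen with earlier results of these data known. All 38 members could be named. Levels in each library are given for the interferon-induced members, their catalytic counterparts, PSME3, PSME4, the 4 other members with the highest and the 4 with the lowest mean change, and a few more. From each other list at most 4 called genes and a fixed set of regulators were named. Some genes of these lists are not reported here.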

Additional observations from a re-analysis of the deposited data

Results flagged for a closer look

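For 6 members the hairpins gave calls in opposite directions against shNT, and the difference between the hairpins was itself past the threshold in edgeR's test. PSMA2 differed by -1.515 on the log2 scale (shLITATS1-2 minus shLITATS1-1), PSMC4 by 0.4986, PSMB8 by 0.4896, PSMD2 by -0.2911, PSME4 by 0.2511 and PSMB7 by 0.1821. PSMA2 rests on 30 to 104 fragments in a library, and its increase with shLITATS1-1 was lost in some alternatives. So were both calls of PSMB7, the decrease of PSMB8 with shLITATS1-1 and the decrease of PSMD2 with shLITATS1-2, which turned to 0.022 with library size alone. PSMC4 and PSME4 kept their opposite calls in all 19 alternatives. For PSMC4, PSME4 and PSMB8 the 3 groups of libraries did not overlap. The 6 differences between the hairpins were past the threshold in all 19 alternatives.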

How the results depend on the processing

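Counts are of members called, out of 33 constitutive or 5 interferon-induced. For shLITATS1-1, the higher constitutive count of 2 became 1 at an adjusted p under 0.01, with GC or length correction, with DESeq2, and with library size counted without mitochondrial genes (chosen after seeing the data), and 1 to 2 with 1 library left out. The higher interferon-induced count of 1 became 0 at 0.01 and with DESeq2, and 0 to 1 with 1 library left out, and the lower count of 3 became 1 to 3. For shLITATS1-2, library size alone gave 8 higher and 6 lower constitutive members, and without mitochondrial genes 6 and 11. Between hairpins, library size alone gave 28 higher, and a fit of only those 6 libraries 4 lower. The cause was not tested. With library size alone, signs turned for shLITATS1-2 against shNT in PSMA7 (0.016), PSMB2 (0.013), PSMB6 (0.023), PSMD2 (0.022), PSMD6 (0.0018), PSMD14 (0.029) and PSME3 (0.017), and between hairpins in PSMA4 (0.081), PSMA7 (0.12), PSMD1 (0.072) and PSME3 (0.072). Between hairpins PSMA7 also turned without mitochondrial genes (0.088), and GC correction turned PSMA4 (0.063) and PSMC2 (0.099), as well as PSMD14 against shNT (0.019). With the replicate block the lower constitutive counts were 27 and 19, and the block moved no count by over 1.5 times; it ended the calls of PSMD14 against shNT (adjusted p = 0.0549) and PSMD11 between hairpins (0.0539). Fragment number limits PSMA2, PSMA6 and PSMB10 most.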
